A study of Mus musculus with 4 samples.

Results

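The integrated stress response is the programme by which a cell answers amino acid shortage, unfolded proteins in the endoplasmic reticulum (ER), haem shortage or viral RNA. A set of 10 of its genes, chosen by name as genes of the ATF4 pathway (Atf4, Atf3, Ddit3, Trib3, Asns, Chac1, Sesn2, Psat1, Phgdh and Shmt2), was read from 19938 genes measured in cultured C57BL/6 mouse cells. Where a gene had several probe sets, the one of highest average level was read, and all 10 had a probe set assigned to that gene alone. The choice of genes used no measured value, but it was made with earlier results of these data known.

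RNA of 4 cultures was hybridised to 1 Affymetrix whole-transcript array each. Plastic-adherent mesenchymal stem cells (MSC), flushed from the marrow of mouse femurs and tibiae, were grown in Coon's modified F12 medium with 10% fetal calf serum and 2 mM glutamine, either with basic fibroblast growth factor (bFGF) at 1 ng/ml or without it. The other 2 arrays were labelled as controls. They held osteoblasts, released by enzyme digestion from newborn calvariae (skull bones; cells of the last digestions were pooled) and grown in DMEM with the same serum and glutamine, and embryonic stem (ES) cells, for which the labels give neither line nor medium. Both MSC cultures shared a medium that the osteoblasts did not have, so medium and cell type cannot be told apart in the comparisons with osteoblasts. The labels name no genetic change in any culture, and do not say how many mice gave each. The stated aim of the series was the effect of bFGF on MSC.

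Sensor kinases of the response phosphorylate the translation factor eIF2, which lowers general protein synthesis and at the same time favours translation of the Atf4 messenger. ATF4, a basic leucine zipper (bZIP) transcription factor, then switches on genes of amino acid uptake, amino acid synthesis and tRNA charging, and, when stress lasts, the genes of ATF3, CHOP (encoded by Ddit3) and the pseudokinase TRIB3. Since ATF4 protein is set largely at translation, the level of its messenger is only part of its regulation.

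Values are the authors' log2 levels, and a difference is the log2 level in the group named first minus that in the other, so that a difference of 1 is 2-fold. To count at 2-fold, a gene also needed a level above a floor in whichever array was higher. The floor was the median of all probe sets of an array that carry a single gene symbol (6.32 in MSC with bFGF, 6.29 in MSC without bFGF, 6.46 in osteoblasts and 6.46 in ES cells). With 1 array per culture no test between cultures was possible, so no p-value or replicate error is given. As a yardstick of measurement noise, probe sets of the same gene differed in their log2 difference with an SD of 0.288 between the MSC arrays and of 0.364 to 0.418 for the other pairs (999 genes with several probe sets). This SD does not measure variation between cultures. Gene positions are those of RefSeq on mouse build GRCm38.p6.

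The labels were checked against marker genes. Of 15 pluripotency genes 3 lay above the floor in MSC with bFGF, 2 in MSC without bFGF, 2 in osteoblasts and 11 in ES cells. Of 10 osteoblast markers 4 lay above the floor in the osteoblast array. Among them Sparc (12.85), Col1a1 (12.60) and Dlx5 (7.49) were each 2-fold or more above every other array. Below the floor were 6, including the defining genes Sp7 (5.36), Alpl (6.03) and Ibsp (4.53), so the markers of the osteoblast label were mixed. Markers in this check were singled out after their values were seen. Macrophage markers were above the floor for 22 of 25 genes in MSC with bFGF, 15 in MSC without bFGF, 25 in osteoblasts and 18 in ES cells, with median levels of 9.63, 6.61, 11.16 and 7.42. Stromal markers were above it for 12, 10, 15 and 13 of 16 genes in the same order, with median levels of 6.98, 7.95, 9.68 and 8.44. Both MSC medians were thus below both controls. Against osteoblasts 10 of the 16 were lower at 2-fold in MSC with bFGF and 9 in MSC without bFGF, and against ES cells 5 in each. Of all genes above the floor, 9.71% and 13.3% were lower at 2-fold than in osteoblasts, and 10.6% and 11.8% than in ES cells. Of 10 endothelial genes 0, 1, 3 and 3 were above it, and of 8 lymphocyte genes none on any array. In such mixed RNA, fewer cells of a type and less RNA per cell cannot be told apart.

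All 10 stress response genes lay above the floor on all 4 arrays, a share that was not counted over all genes. In both MSC arrays 9 of the 10 were higher than in both controls, and Asns, the asparagine synthetase gene, was the exception. For 6 of the 10 genes, Atf4, Ddit3, Trib3, Sesn2, Psat1 and Shmt2, each MSC array was 2-fold or more above each control. Among 11678 genes above the floor on at least 1 array, 31.5% were higher in both MSC arrays than in both controls, and 2.53% were so by 2-fold or more. The ES cell array had the lowest level for 9 of the 10 genes and the osteoblast array for Shmt2. The highest level was in MSC with bFGF for 5 genes, in MSC without bFGF for 4 and in osteoblasts for Asns. How often all genes were lowest or highest on each array was not counted.

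**Figure D1:**
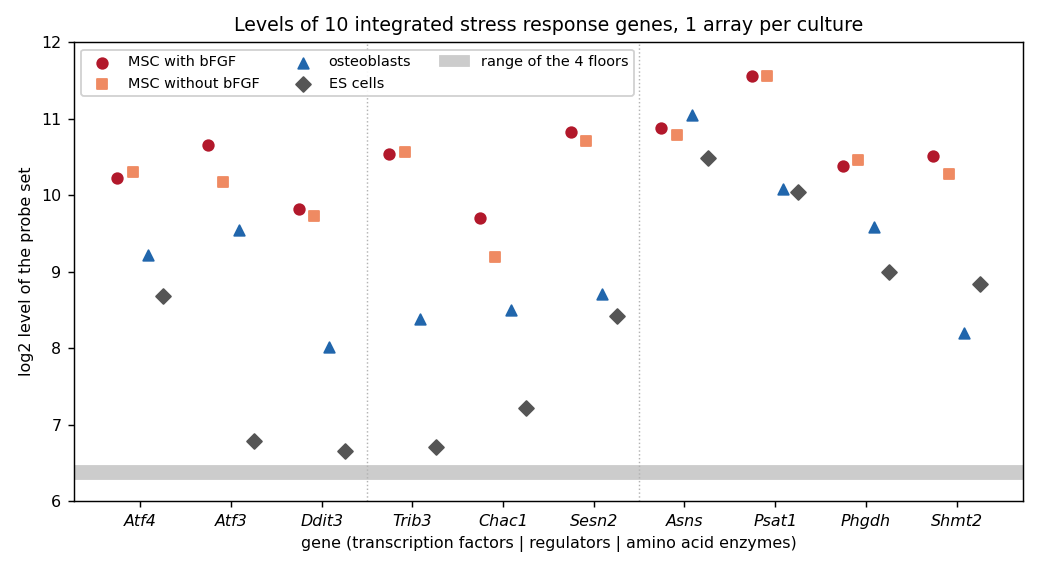
Log2 level (y axis) of the probe set of each of the 10 genes (x axis), with 1 symbol per array, and the range of the 4 floors as a grey band. Both MSC symbols of a gene lie close together and above both controls for 9 genes, and Atf3, Ddit3 and Trib3 lie just above the band in ES cells; levels of different genes are not comparable.

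Atf4 (chr15:80255184-80257545), which encodes the central transcription factor, stood at 10.22 in MSC with bFGF and 10.31 in MSC without bFGF, against 9.22 in osteoblasts and 8.68 in ES cells. Both MSC levels were thus above both controls, by 1.00 and 1.09 over osteoblasts and by 1.54 and 1.62 over ES cells. The value of 1.00 with bFGF lay just inside the 2-fold limit, and it was 0.92 once the differences of all genes were centred on their median.

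Ddit3 (chr10:127290793-127296291), whose product CHOP is a bZIP factor tied to prolonged stress and cell death, had a wider spread. Its level was 9.82 in MSC with bFGF and 9.73 in MSC without bFGF, against 8.02 in osteoblasts and 6.65 in ES cells. The MSC arrays were 3.49-fold and 3.28-fold above osteoblasts. Against ES cells the differences were 3.17 and 3.08 on the log2 scale, with the ES level only 0.19 above its floor.

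Atf3 (chr1:191170296-191183333), an inducible bZIP factor that also answers serum, inflammation and other stimuli, was the transcription factor with the largest range over the arrays, 3.88. It stood at 10.66 in MSC with bFGF and 10.17 in MSC without bFGF, against 9.55 in osteoblasts and 6.78 in ES cells. Over osteoblasts the difference was 1.11 with bFGF and 0.62 without, so of the MSC cultures only that with bFGF passed 2-fold. Osteoblasts were themselves 2.77 above ES cells for this gene.

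Among the regulators downstream, Trib3 (chr2:152337425-152344060), whose product binds ATF4 and CHOP and dampens their activity, stood at 10.54 in MSC with bFGF and 10.56 in MSC without bFGF, against 8.38 in osteoblasts and 6.70 in ES cells. These levels made it 4.48-fold and 4.55-fold higher than in osteoblasts and higher by 3.84 and 3.86 on the log2 scale than in ES cells, where it lay 0.24 above the floor.

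Sesn2 (chr4:132492804-132510456), a leucine-binding inhibitor of mTORC1 signalling, had levels of 10.83 in MSC with bFGF and 10.71 in MSC without bFGF, against 8.71 in osteoblasts and 8.42 in ES cells. The MSC arrays were 2.12 and 2.00 above osteoblasts and 2.41 and 2.29 above ES cells, while the controls differed from each other by 0.29. Chac1 (chr2:119351242-119354326), a glutathione-degrading enzyme, stood at 9.71 in MSC with bFGF and 9.19 in MSC without bFGF, against 8.50 in osteoblasts and 7.22 in ES cells. It was higher than in osteoblasts by 1.21 with bFGF and by 0.69 without, again with only the first past 2-fold.

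Among the enzymes of amino acid synthesis, Psat1 (chr19:15905123-15925059), phosphoserine aminotransferase of the serine pathway, stood at 11.55 in MSC with bFGF and 11.56 in MSC without bFGF, against 10.08 in osteoblasts and 10.05 in ES cells. The MSC arrays were level with each other, as were the controls, and every MSC minus control difference lay between 1.48 and 1.51. Shmt2 (chr10:127517123-127522444), the mitochondrial enzyme that turns serine into glycine and passes its carbon to folate, had levels of 10.51 in MSC with bFGF and 10.27 in MSC without bFGF, against 8.20 in osteoblasts and 8.83 in ES cells. It was 4.93-fold and 4.20-fold above osteoblasts and 3.19-fold and 2.71-fold above ES cells, and it was the only one of the 10 genes with a lower level in osteoblasts than in ES cells.

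Phgdh (chr3:98313171-98339969), the first enzyme of serine synthesis, stood at 10.39 in MSC with bFGF and 10.46 in MSC without bFGF, against 9.59 in osteoblasts and 9.00 in ES cells. Over osteoblasts the differences of 0.80 and 0.87 stayed under 2-fold, and over ES cells they were 1.38 and 1.46. A second probe set, shared with the near-identical sequence Gm6756, gave 0.97 and 1.05 over osteoblasts and 1.14 and 1.22 over ES cells, and whether the copy adds to the Phgdh signal was not tested, so the Phgdh values are uncertain.

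Asns (chr6:7675165-7693209), which makes asparagine from aspartate and glutamine, was nearly level. It stood at 10.89 in MSC with bFGF and 10.79 in MSC without bFGF, against 11.04 in osteoblasts and 10.49 in ES cells. The MSC differences from osteoblasts, -0.16 and -0.26, and from ES cells, 0.40 and 0.30, were all under the yardstick SD, and its range over the 4 arrays was 0.56, the smallest of the 10 genes.

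Atf3, Chac1, Trib3 and Asns also share a feature of sequence. ATF4 binds with C/EBP partners to the C/EBP-ATF response element, searched here as TGATGNAAN on both strands, where N is any base. Of the 10 genes, 4 had a match in the RefSeq promoter windows (mouse build GRCm38.p6, 250 bases before to 50 bases after the annotated start; 11 windows, since Psat1 has a pair). Over all 32851 windows of the table the share with a match was 3.95%. An ATF/CRE-like motif, searched as TGACGTNA on both strands, was found in the window of Atf3 alone, against 2.93% of all windows, and it did not overlap the other match. The 4 windows with a match are shown 5′ to 3′ along the gene's strand, with the matched bases in capitals. They lie at chr1:191183284-191183583 (minus strand), chr2:119350992-119351291 (plus strand), chr2:152344011-152344310 (minus strand) and chr6:7693160-7693459 (minus strand).
Atf3: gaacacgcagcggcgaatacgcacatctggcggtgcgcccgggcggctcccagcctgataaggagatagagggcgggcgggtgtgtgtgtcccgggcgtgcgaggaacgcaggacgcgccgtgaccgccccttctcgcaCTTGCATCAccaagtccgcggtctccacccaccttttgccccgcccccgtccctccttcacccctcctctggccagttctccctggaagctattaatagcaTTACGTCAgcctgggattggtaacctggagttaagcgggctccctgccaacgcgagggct
Chac1: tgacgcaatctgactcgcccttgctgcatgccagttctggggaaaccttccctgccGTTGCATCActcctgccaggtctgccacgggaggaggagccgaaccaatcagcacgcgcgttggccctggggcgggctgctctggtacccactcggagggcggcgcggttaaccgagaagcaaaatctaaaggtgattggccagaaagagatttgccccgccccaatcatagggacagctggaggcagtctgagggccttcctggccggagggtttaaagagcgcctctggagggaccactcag
Trib3: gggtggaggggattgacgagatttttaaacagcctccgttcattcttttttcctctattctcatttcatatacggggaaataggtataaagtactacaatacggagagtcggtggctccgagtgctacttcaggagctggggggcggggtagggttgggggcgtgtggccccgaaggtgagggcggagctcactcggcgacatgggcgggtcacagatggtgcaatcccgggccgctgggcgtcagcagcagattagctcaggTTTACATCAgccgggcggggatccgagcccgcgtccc
Asns: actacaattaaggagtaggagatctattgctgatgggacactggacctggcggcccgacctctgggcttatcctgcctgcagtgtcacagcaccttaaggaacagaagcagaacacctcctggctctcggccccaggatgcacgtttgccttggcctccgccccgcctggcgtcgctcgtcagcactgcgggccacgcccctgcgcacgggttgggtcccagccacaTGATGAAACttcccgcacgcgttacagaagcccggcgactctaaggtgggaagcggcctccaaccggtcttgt

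In the Asns window the motif read TGATGAAAC on the gene's own strand, from base -23 to base -15 before the annotated start. In the other 3 windows it lay on the opposite strand, as TGATGCAAG in Atf3 (-111 to -103), TGATGCAAC in Chac1 (-194 to -186) and TGATGTAAA in Trib3 (14 to 22 after the start). The ATF/CRE-like match of Atf3 read TGACGTAA on the opposite strand (-10 to -3). Among the genes with a match, ranges over the arrays were 3.88 (Atf3), 3.86 (Trib3), 2.49 (Chac1) and 0.56 (Asns). Among those without, they were 3.17 (Ddit3), 2.41 (Sesn2), 2.30 (Shmt2), 1.62 (Atf4), 1.51 (Psat1) and 1.46 (Phgdh). Whether a match goes with the range was not tested. A match is a description of the letters and says nothing of binding in these cells.

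**Figure D2:**
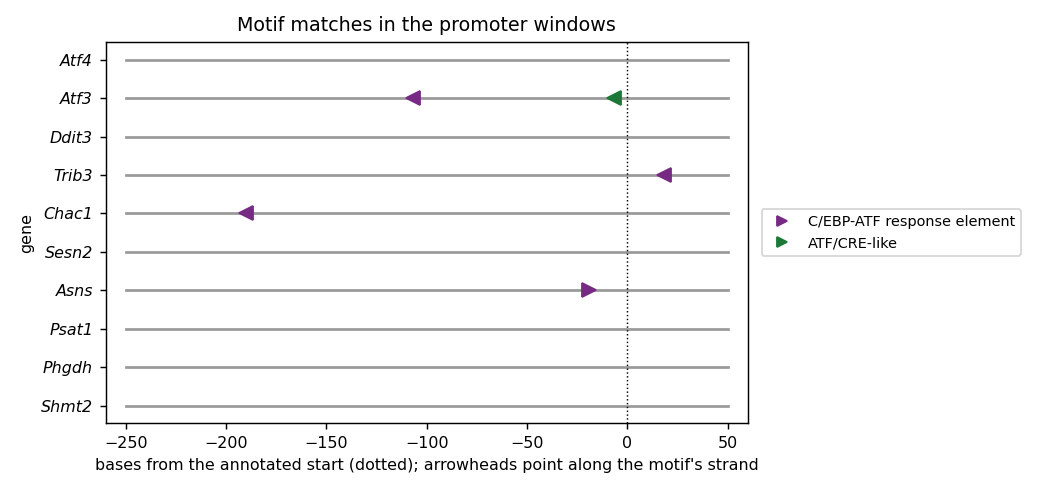
Position of each motif match in bases from the annotated start (x axis) for the 10 genes (y axis), with a grey line for the window and an arrowhead along the strand of the motif. Matches of the C/EBP-ATF response element (purple) lie in 4 windows and the ATF/CRE-like match (green) in that of Atf3, and both windows of Psat1 are drawn as 1 line.

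The comparison of the MSC cultures is the one the series was made for. None of the 10 genes was 2-fold higher or lower with bFGF than without, the median difference was 0.09, and 6 were above 0 and 4 below. Of 10483 genes above the floor in this comparison 4.09% were higher and 0.467% lower at 2-fold, with a median of -0.00. The differences ran from -0.08 for Atf4 to 0.52 for Chac1. For 8 of the 10 genes the gap between the MSC arrays was smaller than the yardstick SD of 0.288, and Chac1 and Atf3 (0.49) were the others. The share of all genes with so small a gap was not counted, so this count says nothing particular to the 10 genes. In the further ATF4 target list no gene passed 2-fold, with a median of -0.04 over 38 genes. Beside shares of 4.09% and 0.467%, counts of 0 among 10 or 38 genes say nothing particular to either list.

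Macrophage markers differed between the same arrays. Of 25 markers 21 were 2-fold or more higher with bFGF, beside 4.09% of all genes, with a median difference of 2.75. The MSC array without bFGF had the lowest median macrophage level of the 4 arrays and levels of the 10 genes at most 0.52 below those of the array with bFGF. Between MSC without bFGF and osteoblasts, where the macrophage median difference was -4.09, the median of the 10 genes was 1.28. Mitosis markers had a median level of 6.88 in MSC with bFGF and 5.93 in MSC without bFGF, against 7.95 in osteoblasts and 9.15 in ES cells, so both MSC arrays lay below both controls. The part of either marker group in the stress response differences was not tested.

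**Figure D3:**
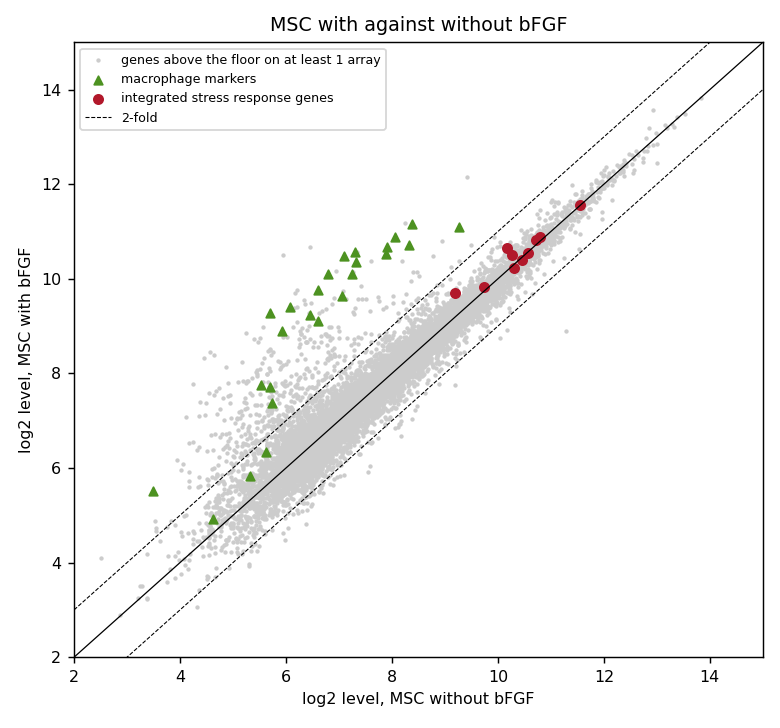
Log2 level in MSC with bFGF (y axis) against MSC without bFGF (x axis) for genes above the floor on at least 1 array (grey), with the solid line at equal levels and dashed lines at 2-fold. The 10 stress response genes (red) lie between the dashed lines, and 21 macrophage markers (green) lie above the upper dashed line and above the floor.

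Compared with osteoblasts, 8 of the 10 genes were 2-fold or more higher in MSC with bFGF and 6 in MSC without bFGF, and none was lower. The genes past 2-fold without bFGF were Atf4, Ddit3, Trib3, Sesn2, Psat1 and Shmt2, and Atf3 and Chac1 joined them with bFGF. Of all genes above the floor, MSC with bFGF had 7.5% higher and 9.71% lower. For MSC without bFGF the shares were 8.17% higher and 13.3% lower. The median of the 10 genes was 1.34 with bFGF and 1.28 without, against medians over all genes above the floor of 0.09 and 0.09. The lowest and highest values were -0.16 (Asns) and 2.30 (Shmt2) with bFGF and -0.26 (Asns) and 2.19 (Trib3) without. These comparisons share the osteoblast array, so they are not independent of each other.

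Compared with ES cells, 9 of the 10 genes were 2-fold or more higher in each MSC array, all but Asns, and none was lower. Of all genes above the floor, MSC with bFGF had 11.3% higher and 10.6% lower. For MSC without bFGF the shares were 10.4% higher and 11.8% lower. The medians of the 10 genes were 2.04 with bFGF and 1.80 without, against 0.12 and 0.10 over all genes. The 3 transcription factors had medians of 3.17 and 3.08, and the 4 amino acid enzymes 1.45 and 1.45.

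**Figure D4:**
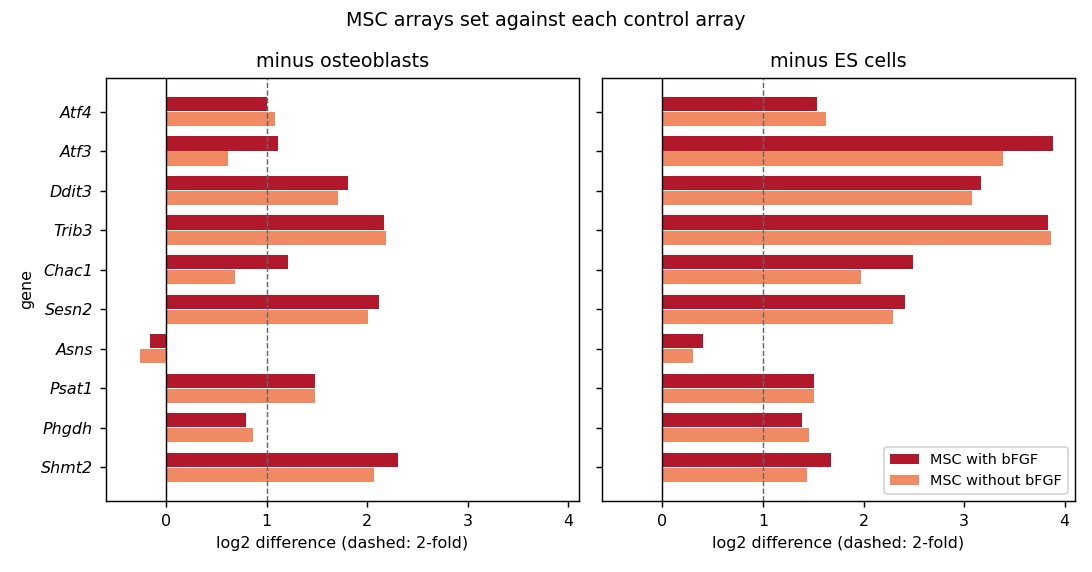
Log2 difference (x axis) of each MSC array from osteoblasts (left panel) and from ES cells (right panel) for the 10 genes (y axis), with a dashed line at 2-fold. Asns is the only gene with bars below 0, against osteoblasts, and Atf3, Ddit3 and Trib3 have the longest bars against ES cells, at 3.08 to 3.88.

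Osteoblasts lay between MSC and ES cells for most of these genes. They were 2-fold or more higher than ES cells for 4 genes, Atf3 (2.77), Trib3 (1.67), Ddit3 (1.37) and Chac1 (1.28), and lower for none, against 12.3% of all genes higher and 8.83% lower. The median of the 10 genes was 0.57, against 0.03 over all genes. The enzymes and Sesn2 had smaller differences, from -0.63 for Shmt2 to 0.59 for Phgdh, and that of Psat1 was 0.03.

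Genes around the pathway were read from lists of known function. Among 17 measured genes of eIF2 kinases, phosphatase subunits and eIF2 factors, Ppp1r15a (GADD34), the stress-induced subunit that restores eIF2, was the only one 2-fold higher in MSC than in osteoblasts, by 1.85 with bFGF and 1.59 without. It stood at 9.55 in MSC with bFGF and 9.30 in MSC without bFGF, against 7.71 in osteoblasts and 6.84 in ES cells. The interferon-induced kinase Eif2ak2 (PKR) was the only one 2-fold lower than in osteoblasts, with differences of -1.14 and -1.29. Of all genes, 7.5% with bFGF and 8.17% without were 2-fold higher than in osteoblasts, and 9.71% and 13.3% lower. Beside these shares, counts of 1 of 17 each way say nothing particular to this list. The list medians were 0.28 and 0.20 against osteoblasts and 0.10 and -0.01 against ES cells. The kinases of ER stress, Eif2ak3 (PERK), of amino acid shortage, Eif2ak4 (GCN2), and of haem shortage, Eif2ak1 (HRI), singled out after their values were seen, differed from osteoblasts by 0.01, -0.19 and 0.13 in MSC with bFGF and by -0.07, -0.56 and -0.01 in MSC without bFGF.

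A list of further known ATF4 targets held 38 measured genes, none of them among the 10 and some also on other lists here. Of these, 17 were 2-fold or more higher than in osteoblasts in each MSC array and none was lower, with medians of 0.83 with bFGF and 0.84 without. Of all genes above the floor, 7.5% with bFGF and 8.17% without were 2-fold higher than in osteoblasts, and 9.71% and 13.3% lower. The cystine transporter Slc7a11 stood at 10.63 in MSC with bFGF and 10.58 in MSC without bFGF, against 7.97 in osteoblasts and 7.14 in ES cells. The glutamine transporter Slc1a5 was higher than in osteoblasts by 2.41 and 2.60, the lipoprotein receptor Vldlr by 2.04 and 2.18, and Cdsn by 2.46 and 2.48, with its osteoblast level of 6.11 under the floor. Against ES cells 25 and 24 of the 38 were 2-fold or more higher, with medians of 1.34 and 1.36. Of all genes 11.3% and 10.4% were higher than in ES cells at 2-fold, and 10.6% and 11.8% lower. The only gene 2-fold lower was Slc7a3, a transporter of basic amino acids, which differed from ES cells by -2.99 and -3.72, with MSC levels of 5.28 and 4.55 under the floor. In 14 of the 38 genes each MSC array was 2-fold or more above each control, a share to be read beside the 2.53% given for all genes.

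The serine and folate pathway was mixed. Of its 17 measured genes outside the 10, the mitochondrial enzymes Aldh1l2 and Mthfd2 were the 2 with each MSC array 2-fold above each control. Of all genes, 2.53% were so. Aldh1l2 had levels of 9.51 in MSC with bFGF and 9.75 in MSC without bFGF, against 7.62 in osteoblasts and 5.05, under the floor, in ES cells. Mthfd2 was higher by 1.30 and 1.28 than in osteoblasts and by 1.93 and 1.91 than in ES cells. The cytosolic counterpart Aldh1l1 differed from osteoblasts by -1.84 and -1.39, and its MSC levels of 4.97 and 5.41 were under the floor. The glycine cleavage genes Gldc and Amt differed from ES cells by -3.56 and -2.84 in MSC with bFGF and by -3.18 and -2.23 in MSC without bFGF, and the MSC levels of both, from 5.19 to 5.91, were under the floor, so these sizes depend on background. The thymidylate synthase gene Tyms differed by -1.43 and -1.90, with a level of 6.04, under the floor, in MSC without bFGF. The median of the 17 genes was 0.11 and 0.32 against osteoblasts and -0.15 and -0.18 against ES cells.

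Cytosolic tRNA synthetases charge tRNAs with amino acids. The list of 20 measured genes also held Aimp1 and Aimp2, which are not synthetases. Of the 20 genes 19 were above 0 against osteoblasts in each MSC array, where all genes above the floor had shares of 55.3% and 55.5%. The list medians were 0.66 with bFGF and 0.73 without. The 3 past 2-fold were Wars (1.25 and 1.28), Rars (1.35 and 1.22) and Lars (1.14 and 1.22). Beside 7.5% and 8.17% of all genes 2-fold higher than in osteoblasts, 3 of 20 says nothing particular to this list. Against ES cells 14 of the 20 were above 0 in each MSC array, against 57.2% and 55.8% of all genes. The medians there were 0.72 and 0.66. Past 2-fold were 4 genes with bFGF and 5 without, beside 11.3% and 10.4% of all genes, and Sars was higher by 1.45 and 1.35.

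ER chaperones and sensors answer unfolded protein through ATF6 and XBP1. Against osteoblasts the median of 23 genes was 0.28 with bFGF and 0.00 without. The 3 genes past 2-fold in both were the sensors Ern1 (IRE1), by 2.12 and 2.35, and Atf6, by 1.35 and 1.59, and the co-chaperone Dnajb9, by 1.64 and 1.55. Edem1, of ER-associated degradation, was 2-fold lower in MSC without bFGF, at -1.12. Of all genes above the floor, 7.5% with bFGF and 8.17% without were 2-fold higher than in osteoblasts, and 9.71% and 13.3% lower. Beside these shares, counts of 3 higher and at most 1 lower of 23 say nothing particular to this list. Hspa5 (BiP), the main ER chaperone, singled out after its value was seen, was higher by 0.51 and 0.45. Between the MSC arrays Sdf2l1 was the only gene of this list past 2-fold, at 10.47 with bFGF against 8.78 without. Beside 4.09% of all genes higher at 2-fold there, a count of 1 of 23 says nothing particular to this list. Against ES cells 7 and 5 of the 23 genes were 2-fold or more higher, beside 11.3% and 10.4% of all genes. The medians there were 0.74 and 0.35, and Herpud1, an ER degradation factor, was higher by 2.43 and 2.24. Osteoblasts were likewise 2-fold or more above ES cells for 6 of the 23, beside 12.3% of all genes, with a median of 0.43.

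**Figure D5:**
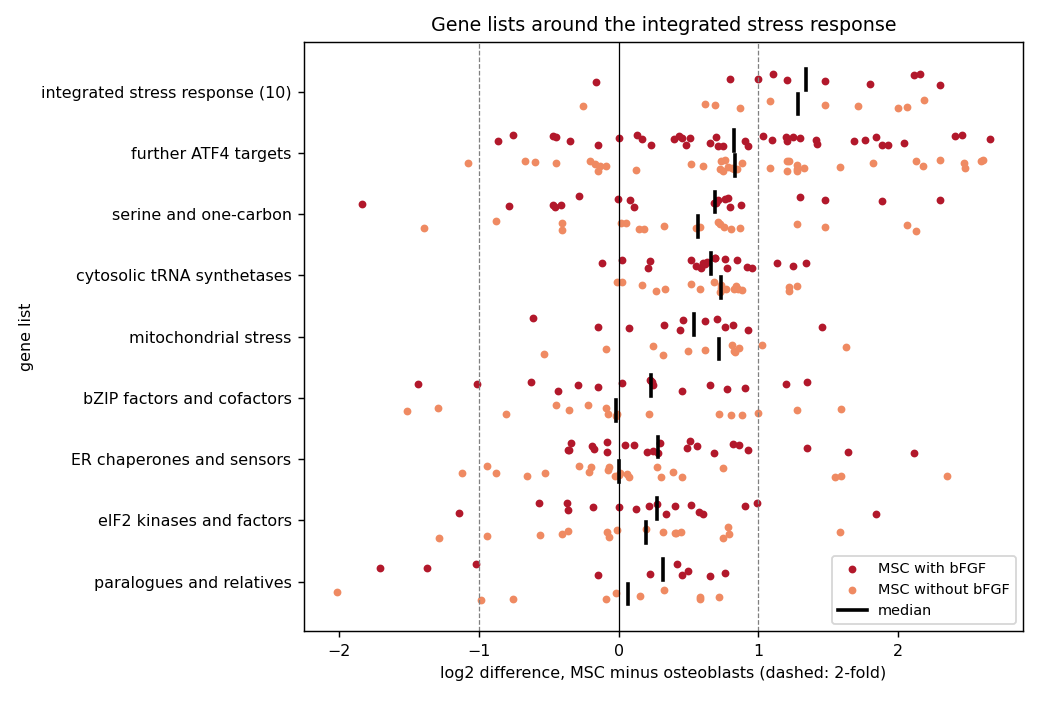
Log2 difference of MSC from osteoblasts (x axis) for each gene of 9 lists (y axis), with MSC with bFGF in the upper row and MSC without bFGF in the lower row of each list, a black bar at the median and dashed lines at 2-fold. The medians of the 10 stress response genes lie at 1.34 and 1.28, those of further ATF4 targets at 0.83 and 0.84 and those of ER chaperones and sensors at 0.28 and 0.00; the serine list in this plot includes 3 of the 10 genes.

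ATF4 acts with other bZIP factors and with cofactors. Of 17 genes for bZIP factors and the cofactors Crebbp and Nupr1, Cebpg, a C/EBP partner of ATF4, and Atf6 were 2-fold or more higher than in osteoblasts, Cebpg by 1.20 with bFGF and 1.28 without. Creb3l1, a factor of collagen-secreting cells, differed by -1.43 and -1.51, Cebpa by -1.01 in MSC with bFGF, where it lay under the floor, and Fos by -1.29 in MSC without bFGF. Of all genes above the floor, 7.5% with bFGF and 8.17% without were 2-fold higher than in osteoblasts, and 9.71% and 13.3% lower. Beside these shares, counts of 2 of 17 each way say nothing particular to this list. The list medians against osteoblasts were 0.23 with bFGF and -0.02 without. Against ES cells 10 and 7 of the 17 were 2-fold or more higher, beside 11.3% and 10.4% of all genes. Creb3l1 was 2-fold lower than in ES cells in MSC without bFGF, at -1.02. Osteoblasts were also 2-fold or more above ES cells for 6 of the 17, beside 12.3% of all genes, with a median of 0.68. The MSC medians against ES cells were 1.22 and 0.81, and the higher genes included the stress cofactor Nupr1 (2.02 and 2.45) and the antioxidant factor Nfe2l2 (1.61 and 1.83).

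The mean profile of the 10 genes, each set to its own mean over the arrays, was 0.94 in MSC with bFGF, 0.80 in MSC without bFGF, -0.45 in osteoblasts and -1.29 in ES cells. The 6 genes outside the set with the smallest Euclidean distance to this profile over the 4 arrays, of 11668 candidates, were Ss18l2 (0.09), Osbpl2 (0.11), Pla2g4a (0.13), Gpt2 (0.13), Crebrf (0.14) and Pvt1 (0.16). Gpt2, an alanine aminotransferase that is on the list of further ATF4 targets, stood at 9.07 in MSC with bFGF and 9.08 in MSC without bFGF, against 7.86 in osteoblasts and 6.91 in ES cells. Of the 10 genes themselves Chac1 (0.44) and Atf4 (0.50) were closest to the mean profile and Asns (1.68) was farthest. With 4 arrays many genes can resemble a profile, so this is a description of these arrays.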

How the data were processed

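The deposited table held 1 value for each of 35556 probe sets on each of 4 Affymetrix arrays. Per the submitters' processing notes the authors made these log2 values with Affymetrix Expression Console and RMA, which corrects background, aligns the arrays' distributions and summarises probes; the log2 scale was inferred from the values (1.40 to 14.28), and tool versions and a genome build were not given in the sources used here. Since RMA aligns the arrays, a general shift of all transcripts would not show, and differences shrink near background. Precision is limited by the number of arrays.

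The platform annotation gave 21789 probe sets 1 symbol, 1621 several and 12146 none; only the first were named, and each of 19938 genes took its probe set with the highest mean. List symbols were matched by name, or by older name through RefSeq (GRCm38.p6), which also gave promoter windows. The members and lists were chosen with earlier results of these data known. Genes named beside the 10 were, by rule, up to 4 per list, direction and comparison past 2-fold, and the 6 nearest profiles; further ones are marked. No test was run, since each group had 1 array. Alternatives were averaging a gene's probe sets, dropping the floor, raising it to the 75th percentile, 1.5-fold, centring, a loess curve (span 0.3), repeated quantile normalization, and lists without the largest member. Counting was tested on simulated data. The software was numpy 2.4.6, pandas 2.3.3 and statsmodels 0.14.6 under Python 3.11.15.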

Additional observations from a re-analysis of the deposited data

How the results depend on the processing

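No paired analysis was possible because each group had 1 array. Some alternatives could not move the values. Averaging a gene's probe sets left the values of the 10 genes as they were, and the alternative for Phgdh altered that gene alone. Dropping the floor could not change a count, since all 10 genes lay above it. Of 300 recomputed differences of single genes, which include these, none changed sign where it was 2-fold or more, none moved by more than the yardstick SD, and the largest shift was 0.21 on the log2 scale. The medians of the 10 genes moved by less than that SD under every setting tried, at 1.21 to 1.34 for MSC with bFGF and 1.09 to 1.28 for MSC without bFGF against osteoblasts. The 8 genes counted as higher in MSC with bFGF than in osteoblasts were 9 at 1.5-fold, 7 with centring or repeated quantile normalization and 6 with a loess curve removed, and the 6 in MSC without bFGF were 9 at 1.5-fold and 5 under each of these rescalings. Atf4 lay under the limit in each of them (0.92 and 0.99 when centred), and Atf3 with bFGF did so after the loess curve (0.99). The 6 genes with each MSC array 2-fold above each control were 9 at 1.5-fold and 5 with repeated quantile normalization. At 1.5-fold 1 gene, Shmt2, counted as lower in osteoblasts than in ES cells, against 0 at 2-fold, and the 4 higher there were 3 with the floor at the 75th percentile. Centring on the median of all genes shifted the comparison of MSC with bFGF and ES cells by 0.12. Taking Phgdh as the mean of its probe sets, an alternative chosen after seeing the data, changed no count. Without replicate cultures none of these values carries an error for variation between cultures, and levels of Atf3, Ddit3 and Trib3 in ES cells lay within 0.32 of the floor.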

Other observations

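A list of 12 genes held mitochondrial chaperones and proteases, whose genes answer unfolded protein in mitochondria, and Atf5, a bZIP factor. Of the 12 genes 10 were higher in MSC than in osteoblasts in each array, against 55.3% of all genes with bFGF and 55.5% without. The medians were 0.54 in MSC with bFGF and 0.72 in MSC without bFGF. The matrix protease gene Lonp1, a known ATF4 target in mammalian cells, stood at 10.24 in MSC with bFGF and 10.42 in MSC without bFGF, against 8.79 in osteoblasts and 8.89 in ES cells. It was the only gene of this list with each MSC array 2-fold above each control, as were 2.53% of all genes. The chaperonin gene Hspd1 was higher than in osteoblasts by 0.92 in MSC with bFGF and by 1.03 in MSC without bFGF. Between the MSC arrays 1 of the 12 genes was above 0 with bFGF, against 49.4% of all genes, with a median of -0.09 and a yardstick SD of 0.288.

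Of 10 paralogues or relatives of the 10 genes, 0 had each MSC array 2-fold above each control, a count that says nothing of the list beside the 2.53% of all genes. Jdp2 was higher than in ES cells by 1.38 in MSC with bFGF and 1.14 in MSC without bFGF, and Atf5 by 1.22 and 1.27. Osteoblasts were likewise above ES cells, by 1.16 for Jdp2 and 1.37 for Atf5. From osteoblasts the MSC arrays differed by 0.22 and -0.02 for Jdp2 and by -0.15 and -0.09 for Atf5. Sesn1, a p53-responsive relative of Sesn2, stood at 6.74 in MSC with bFGF and 6.09, under the floor, in MSC without bFGF, against 8.11 in osteoblasts and 6.65 in ES cells. Sesn3 was at 7.21 in MSC with bFGF and 7.93 in MSC without bFGF, against 8.92 in osteoblasts, so both lay below osteoblasts in MSC while Sesn2 lay above. Trib2 differed from osteoblasts by -1.02 in MSC with bFGF. Shmt1, the cytosolic relative of Shmt2, differed between osteoblasts and ES cells by -1.37.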
